A study of Mus musculus with 2 samples.

Results

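The 10 genes described here form the core of the mouse MHC class II antigen presentation pathway: H2-Aa, H2-Ab1, H2-Eb1, Cd74, H2-DMa, H2-DMb1, H2-DMb2, H2-Oa, H2-Ob and Ciita. They were taken by name, with the synonyms of the array annotation, from the 27597 gene names and 41174 gene probes of an Agilent 2-colour mouse array, where 16 probes belong to them. RNA of purified CD8+ T cells was compared on 2 arrays, each a biological replicate. The cells with red dye (Cy5) came from Bcl11bF/F/dLck-iCre mice, whose floxed Bcl11b is cut by a Cre driven by the distal Lck promoter in T cells, and are called deficient. The cells with green dye (Cy3) came from wild-type mice. Both groups had been infected with Listeria monocytogenes-OVA, a Listeria strain that expresses ovalbumin, and were sampled on day 6. The labels give a purity over 90% after negative selection. They do not give age, the number of mice behind a sample or the part of Bcl11b that was deleted. Because the dyes were not swapped, a dye effect on a gene and an effect of genotype cannot be told apart.

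MHC class II molecules are pairs of an alpha and a beta chain that carry peptides from the endosome to the cell surface, where CD4 T cells read them. The invariant chain CD74 holds the newly made pair in shape and blocks its groove until endosomal proteases cut it down. The DM heterodimer then removes the remaining CLIP peptide and lets other peptides in, and the DO heterodimer restrains DM. CIITA is the coactivator that switches these genes on together. B cells, dendritic cells and macrophages are the classical presenting cells, and DO is known mainly from B cells. Mouse T cells are generally held not to make class II molecules of their own.

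CIITA does not bind DNA itself. It is recruited by factors that sit on the X box and the inverted CCAAT motif called the Y box, which lie close together in class II promoters. RefSeq promoter windows (GRCm38.p6, 250 bases before to 50 after a transcript start) were held for 7 of the 10 genes. The stretches below are shown because they carry the shared Y box, and they run from 50 bases before it to 10 bases after it, 5′ to 3′ on the strand of the gene, all upstream of the start. Capitals mark TGATTGG, the Y box with its 2 leading bases, and AGCAAC, an X box core, where they occur.
H2-Aa: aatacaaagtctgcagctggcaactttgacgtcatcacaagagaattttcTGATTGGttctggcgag
H2-Eb1: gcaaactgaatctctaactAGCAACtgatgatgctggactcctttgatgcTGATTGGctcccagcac
H2-DMb1: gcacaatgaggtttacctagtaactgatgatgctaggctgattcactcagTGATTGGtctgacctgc
H2-DMb2: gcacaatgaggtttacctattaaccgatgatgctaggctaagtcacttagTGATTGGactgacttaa
H2-Oa: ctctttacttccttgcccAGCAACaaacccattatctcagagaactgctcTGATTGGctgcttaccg
H2-Ob: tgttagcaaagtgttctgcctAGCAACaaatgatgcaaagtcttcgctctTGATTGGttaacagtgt

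The stretches lie at chr17:34287857-34287923 (H2-Aa, minus strand), chr17:34305756-34305822 (H2-Eb1), chr17:34153078-34153144 (H2-DMb1), chr17:34145107-34145173 (H2-DMb2), chr17:34092284-34092350 (H2-Oa) and chr17:34238796-34238862 (H2-Ob), the last 5 on the plus strand. TGATTGG begins 45 to 92 bases before the start in these 6 genes, nearest in H2-Oa and farthest in H2-DMb2. In H2-Eb1, H2-Oa and H2-Ob the AGCAAC begins 31, 32 and 29 bases before the first base of TGATTGG. Searched on both strands, the 5-letter Y box core ATTGG was in a window of all 7 genes, H2-DMa included, in 41.1% of all genes and in 37.4% of all 32851 windows. TGATTGG, which contains ATTGG and was chosen after the windows had been read, was in 6 of the 7 genes, in 8.995% of all genes and in 7.82% of all windows. AGCAAC was in 3 of the 7, in 16.7% of all genes and in 14.8% of all windows, and a looser X box pattern with unfixed letters, which overlaps none of the marked motifs, was in H2-DMb1 alone of the 7, in 20.4% of all genes and in 18.1% of all windows. These matches describe letters and are not measured binding sites.

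Bcl11b itself had log2 ratios of -0.69 and -2.95 at its brighter probe on the 2 arrays (mean -1.82 ± 1.60, SD, n = 2; limma adjusted p = 6.55e-04) and -1.09 and -2.03 at the other. Log2 ratios, always deficient over wild type, were taken after background correction and loess normalization within each array, and tested against 0 with limma over 9931 genes. Of these, 364 were higher (3.67%) and 593 lower (5.97%). The fit gave every gene the same standard error of 0.42, so passing the test meant a mean log2 ratio beyond 1.18 in size. A gene's own spread between the 2 arrays, printed as SD, did not enter its p-value. The balance of calls differed between settings: lower genes were 62.0% of calls after loess, 83.5% with median centring, 51.0% with both arrays set to a gene median of about 0, 39.2% without background correction and 28.2% where both channels had to be well above background.

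The class II genes stood clearly on the higher side. A probe of 9 of the 10 genes passed the filter on dim spots (1 channel well above background on both arrays), and 8 of these 9 were higher in deficient cells, against 3.67% of all genes tested. In the lower direction limma called 0 of the 9, where the share of all genes, 5.97%, would give few or none. At an unadjusted p under 0.05 it also called 0 of the 9 lower. Their median log2 ratio was 1.78, with 1.29 on replicate 1 and 2.33 on replicate 2, where all genes had a median of -0.12, -0.22 and -0.01. On single arrays, 6 of the 9 lay above 2-fold on replicate 1 (7.60% of all genes) and all 9 on replicate 2 (6.39% of all genes). The 6 that were above 2-fold on both arrays were H2-Ab1, H2-Eb1, Cd74, H2-DMb1, H2-Oa and Ciita, where 2.59% of all genes were. The call is less firm than these values: with the log ratios of the scanner software, at which all 9 means lay within 0.41 of those given here, 1 gene passed (Ciita). Median centring in place of loess lowered all 9 means, and again Ciita alone passed, at 1.93. With it H2-Ab1 stood at 1.54, H2-DMb1 at 1.28, H2-Eb1 at 1.24, H2-Aa at 0.97, Cd74 at 0.68, H2-DMa at 0.67, H2-Oa at 0.54 and H2-DMb2 at 0.23.

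**Figure D1:**
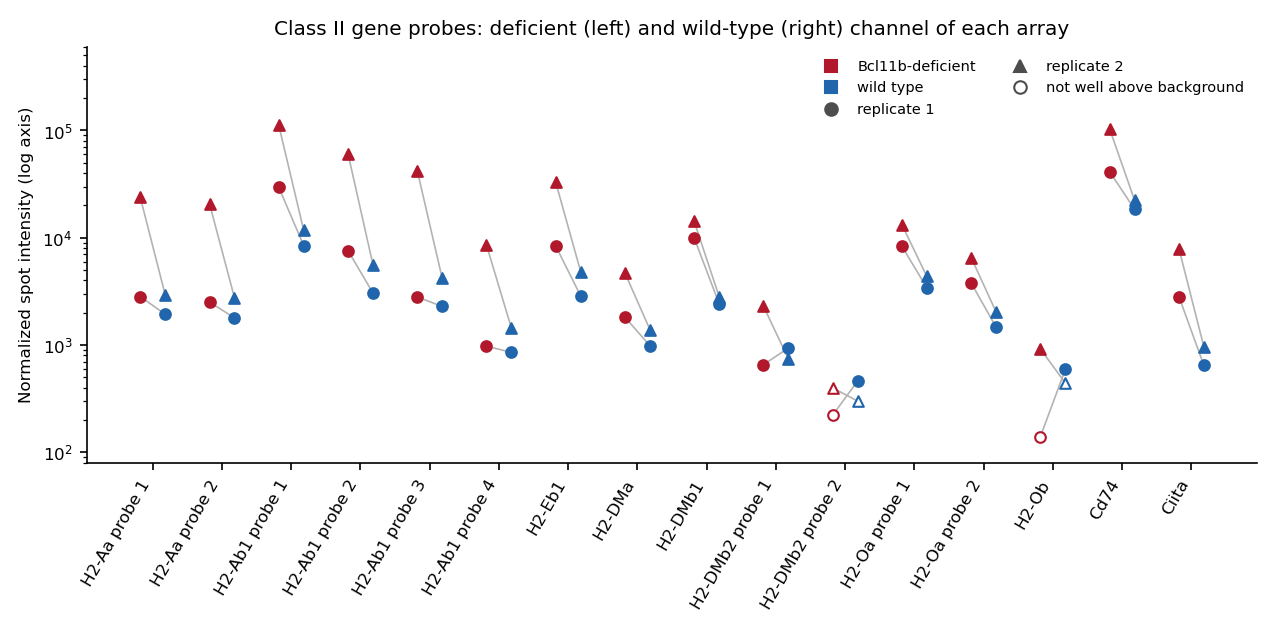
Normalized spot intensity (log axis) of the 16 class II probes, with the deficient channel left and the wild-type channel right, circles for replicate 1, triangles for replicate 2, and open symbols for spots not well above background. Lines join the channels of 1 array. Except at both H2-DMb2 probes and H2-Ob, the deficient channel is the brighter one on both arrays.

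The classical alpha and beta chains, which bind the peptide, were higher, and more so on replicate 2. H2-Ab1, the beta chain of the I-A molecule, had normalized intensities of 29603 and 111801 in deficient cells (replicates 1 and 2) and 8444.7 and 11769 in wild-type cells at its brightest probe. Each deficient value lay above the wild-type value of its own array. H2-Ab1 rose by a log2 ratio of 2.53 ± 1.02 (SD, n = 2; 1.81 and 3.25 on replicates 1 and 2; limma adjusted p = 2.72e-07). H2-Aa, the alpha chain of I-A, had 2832 and 23816 in deficient cells and 1936 and 2938 in wild-type cells. Here the groups overlapped when arrays were set side by side, since the deficient value of replicate 1 was under the wild-type value of replicate 2, although levels are scaled within an array and not between arrays. H2-Aa rose by 1.78 ± 1.75 (adjusted p = 9.17e-04), a mean that replicate 2 carried: its ratio was 0.55 on replicate 1 and 3.02 on replicate 2. H2-Eb1, the beta chain of I-E, had 8378 and 32908 in deficient cells and 2873 and 4843 in wild-type cells. H2-Eb1 rose by 2.15 ± 0.86 (1.54 and 2.76; adjusted p = 2.58e-05). The array places the H2-Eb1 probe at the H2-Eb1 gene (chr17:33922800-33923261, build NCBI36) but describes its source sequence as an I-A beta mRNA, so its assignment is uncertain.

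Several probes read the same chain, which shows how far a value depends on the probe. The 2 H2-Aa probes (chr17:33892680-33892739 and chr17:33892022-33892081, NCBI36) gave 0.55 and 0.49 on replicate 1 and 3.02 and 2.91 on replicate 2, so they differed far less than the arrays did. The 4 H2-Ab1 probes lay between 2.57 and 3.44 on replicate 2 and between 0.19 and 1.81 on replicate 1. On replicate 1 the ratio was 0.30 at the probe nearest the 5′ end (chr17:33872973-33873032), 1.31 at the next, 2665 bases on (chr17:33875638-33875697), and 1.81 at the last, 4336 bases on (chr17:33877309-33877368). On replicate 2 the same probes gave 3.33, 3.44 and 3.25, with no such order. The fourth H2-Ab1 probe, named through the mRNA BC010322 and without a coordinate on the array, gave 0.19 and 2.57. With the mean of the 4 probes, H2-Ab1 stood at 2.02 and still passed (adjusted p = 7.92e-05).

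**Figure D2:**
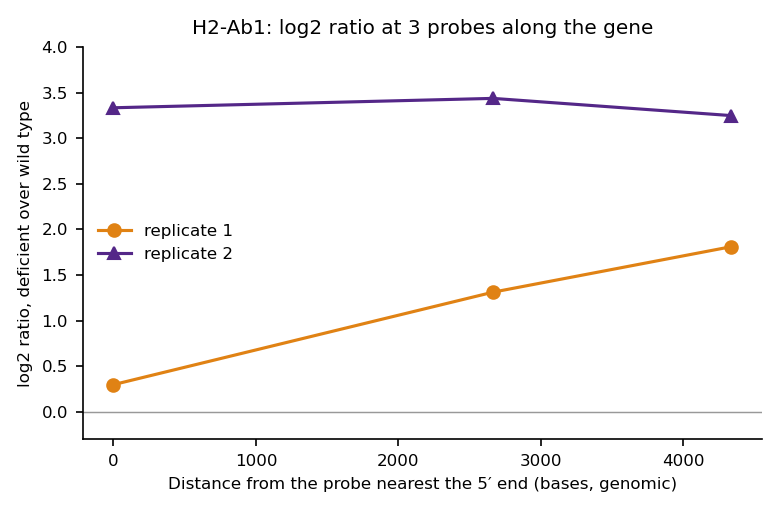
Log2 ratio of deficient over wild type at 3 H2-Ab1 probes against their genomic distance in bases from the probe nearest the 5′ end, for replicate 1 (circles) and replicate 2 (triangles). Replicate 1 goes from 0.30 to 1.81 along the gene, while replicate 2 stays between 3.25 and 3.44.

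Repeat spots of 1 H2-Ab1 probe lay closer together than the probes did. The middle probe is printed in 10 spots on each array, and these ran from 1.20 to 1.38 on replicate 1 (SD 0.058) and from 3.33 to 3.48 on replicate 2 (SD 0.045). The array as a whole had no such order along genes. Over 1875 genes with probes at least 200 bases apart, the ratio of the most 3′ probe minus that of the most 5′ probe had a median of -0.04 on replicate 1 and -0.06 on replicate 2. The H2-Ab1 difference of 1.51 on replicate 1 was exceeded in 8.80% of these genes, whose differences had an SD of 1.21 on that array and 0.49 on replicate 2.

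Cd74, the invariant chain that escorts the new alpha-beta pair, was also higher. It had 41321 and 103184 in deficient cells and 18429 and 22374 in wild-type cells. Cd74 rose by 1.69 ± 0.74 (1.16 and 2.21; adjusted p = 0.00203; chr18:60937790-60937847, NCBI36).

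The DM genes, whose product exchanges CLIP for other peptides, differed among themselves. H2-DMb1, a DM beta chain, had 9953 and 14198 in deficient cells and 2429 and 2833 in wild-type cells. It rose by 2.18 ± 0.21 (adjusted p = 1.90e-05; chr17:33767055-33767114), and its ratios of 2.03 and 2.33 were the closest between arrays of the 9 genes. H2-DMa, the DM alpha chain, had 1816 and 4690.4 in deficient cells and 988 and 1397 in wild-type cells, and rose by 1.31 ± 0.61 (0.88 and 1.75; adjusted p = 0.0248; probe between 33747809 and 33748372). H2-DMb2, the second DM beta gene of the mouse, did not pass. Its brighter probe had 657 and 2306 in deficient cells and 940 and 743 in wild-type cells, so the deficient channel was dimmer on replicate 1 and brighter on replicate 2. The log2 ratios were -0.52 and 1.63 (mean 0.56 ± 1.52; adjusted p = 0.454). The array lists accessions of both DM beta genes for this probe (chr17:33759287-33759346), which therefore cannot be assumed to separate them. The other H2-DMb2 probe (chr17:33758478-33758538) lists H2-DMb2 accessions alone, gave -1.06 and 0.41, and did not pass the filter: only the wild-type spot of replicate 1 was well above background.

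Of the DO genes, whose product restrains DM, H2-Oa alone could be tested. H2-Oa, the DO alpha chain, had 8333 and 13245 in deficient cells and 3414 and 4358 in wild-type cells. It rose by 1.45 ± 0.22 (1.29 and 1.60; adjusted p = 0.0110; chr17:33705542-33705601). Its second probe, next to the first (chr17:33705473-33705533), gave 1.37 and 1.68. H2-Ob, the DO beta chain, was the gene without a probe that passed the filter. It had 140.4 and 919 in deficient cells, well above background on replicate 2 alone, and 593 and 443 in wild-type cells, well above background on replicate 1 alone. Its ratios of -2.08 and 1.05 therefore point opposite ways and rest on dim spots (chr17:33852080-33852311).

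Ciita, the coactivator of the whole group, had the largest mean ratio of the 9 genes. It had 2834 and 7944 in deficient cells and 650.1 and 968 in wild-type cells. Ciita rose by 2.58 ± 0.65 (2.12 and 3.04; adjusted p = 1.49e-07; chr16:10439788-10439847), which placed it 39 from the top of 9931 genes, next to H2-Ab1 at place 44. It passed in 11 of 13 alternatives, more than any of the other 8 genes.

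**Figure D3:**
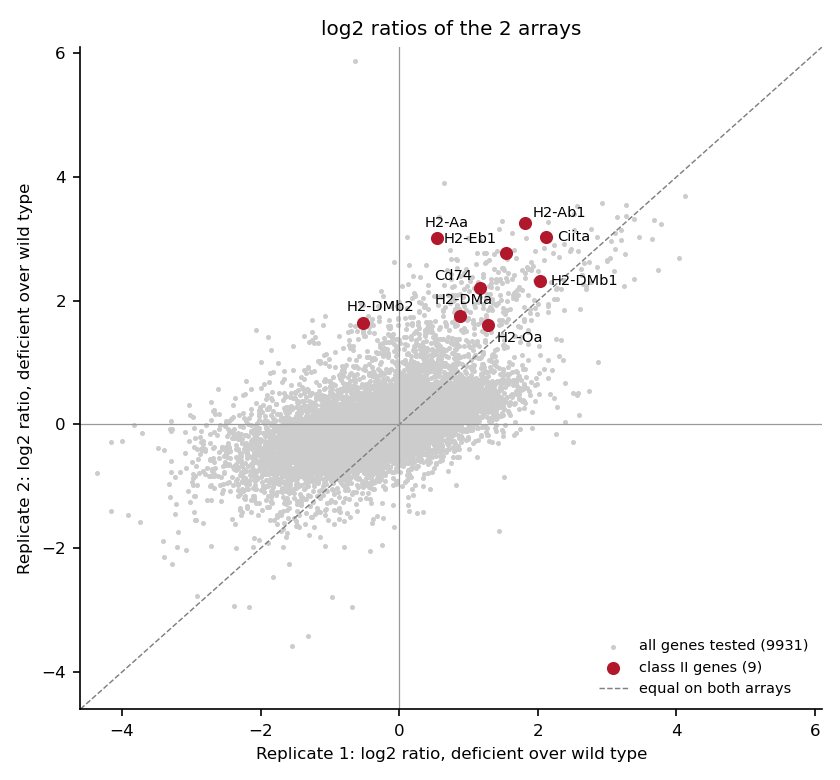
Log2 ratio of deficient over wild type on replicate 1 (x axis) and replicate 2 (y axis) for all 9931 genes tested (grey) and the 9 class II genes (red), with a dashed line of equal values. All 9 lie above that line, H2-DMb1 and H2-Oa closest to it, H2-Aa and H2-DMb2 farthest from it.

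The arrays agreed on direction for 8 of the 9 genes and differed in size. Replicate 2 minus replicate 1 was above 0 for every one of the 9, from 0.29 (H2-DMb1) to 2.47 (H2-Aa), with a median of 1.04, where the median of all genes was 0.25. The 3 classical chains and Cd74 had a median of 1.35 on replicate 1 and 2.89 on replicate 2. The 5 DM, DO and Ciita genes had 1.29 and 1.75. That difference between the sets was not tested. For H2-Aa, 0.82% of all genes had a larger step between the arrays, and for H2-DMb2 1.80%, while for H2-DMb1 and H2-Oa 47.8% and 46.5% did. In the top class of 10 equal classes of genes by intensity, which holds H2-Aa, H2-Ab1, H2-Eb1, Cd74, H2-DMb1 and H2-Oa, replicate 2 minus replicate 1 had a median of -0.02.

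The other class II chain genes of the region were near the limit of detection. H2-Eb2, a second E beta gene, was at its brighter probe well above background in deficient cells on both arrays (522 and 481). In wild-type cells it was so on neither (348 and 384). That gave at least 1.28-fold more in deficient cells, at a probe that passed the filter through the deficient channel alone. The gene did not pass the test (adjusted p = 0.549). Its other probe was not well above background in either group, at 274 and 270 in deficient cells and 235 and 248 in wild-type cells. H2-Ea, the alpha chain partner of H2-Eb1, was not well above background in either group, at 167 and 231 in deficient cells and 161 and 201 in wild-type cells. Some laboratory strains lack H2-Ea transcripts because of a promoter deletion, and the labels do not name the strain.

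Genes that lie between the class II genes but do other work did not pass the test. All class II genes here except Cd74 and Ciita sit on chromosome 17, where the probes from H2-Oa to H2-Eb2 span 236 kb (chr17:33705473-33941126). The 5 neighbours measured inside this span ran from -0.24 (Brd2, a bromodomain protein) to 0.79 (Tap2, a subunit of the class I peptide transporter). Psmb9, an immunoproteasome subunit, stood at 0.73 ± 0.49 and Tap1 at -0.19 ± 1.27. Of 19 neighbours measured out of 22 listed in and around the region, limma called 0 in either direction. The array places the probe of 1 of the 19, Kifc1, elsewhere on the chromosome (chr17:26659711-26659763). Among all genes tested, 3.67% were higher and 5.97% lower, shares at which 19 genes would hold few calls. At an unadjusted p under 0.05, 0 neighbours were higher and 1 lower, and the median of the 19 was 0.03.

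**Figure D4:**
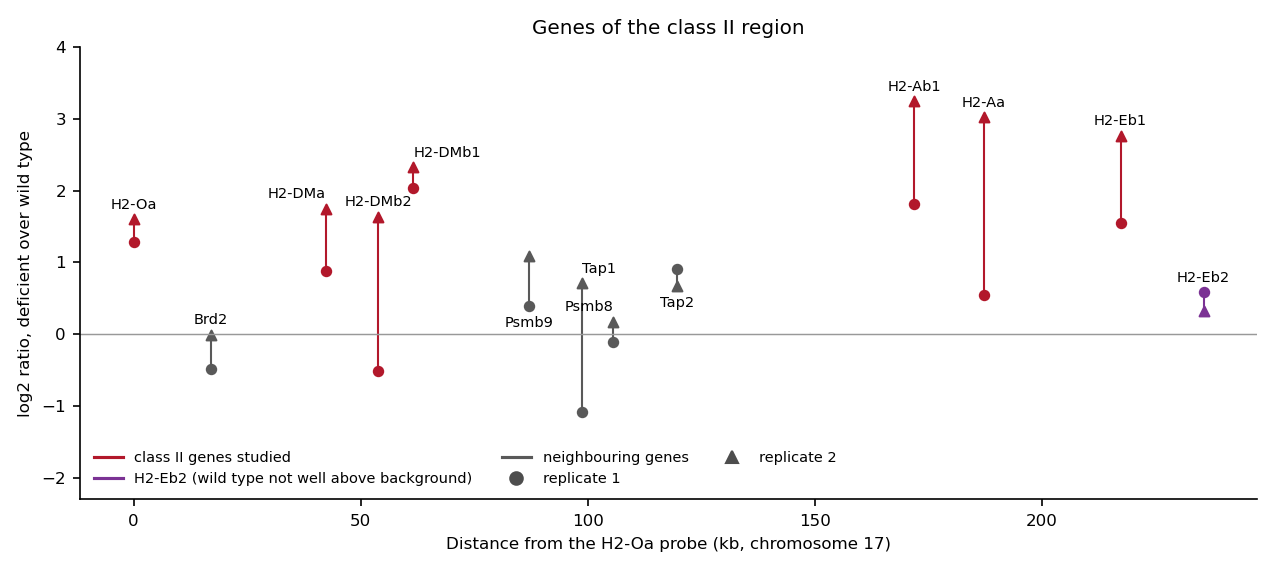
Log2 ratio of deficient over wild type (y axis) against distance in kb from the H2-Oa probe on chromosome 17, with circles for replicate 1, triangles for replicate 2 and a line between them. Class II genes (red) reach 3.25, H2-Eb2 (purple) lies at 0.58 and 0.32, and the 5 neighbouring genes (grey) have means between -0.24 and 0.79.

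Most genes that prepare the cargo of class II molecules were higher too. Of 12 genes for antigen and invariant chain processing, all measured, 8 were higher and 1 lower, against 3.67% and 5.97% of all genes. Their median was 1.93, against -0.12 over all genes. Ctss, the cathepsin that makes the last cuts in the invariant chain, had 26124 and 37251 in deficient cells and 6797 and 9226 in wild-type cells, and rose by 1.98 ± 0.05 (adjusted p = 1.62e-04). Ctsb, another endosomal cathepsin, rose by 3.24 ± 0.30 at its brighter probe, while its dimmer probe gave 0.37 ± 0.27. Cst3, which encodes the cathepsin inhibitor cystatin C, rose by 2.66 ± 0.25, Ctsh by 2.47 ± 0.54 and Ctsz by 2.20 ± 0.42. Lgmn, the asparaginyl endopeptidase legumain, rose by 2.43 ± 0.84, Ifi30, the thiol reductase that opens disulphide bonds of antigens, by 1.88 ± 0.33, and Ctsd by 1.54 ± 0.29. The dimmer Ctsd probe gave -0.08 on replicate 1 and 1.25 on replicate 2. Ctse, cathepsin E, fell by 1.41 ± 0.73 (dim in deficient cells on replicate 1). Ctsl (0.91 ± 0.59), Sppl2a (0.31 ± 0.51), which cleaves the invariant chain stub in the membrane, and Ctsf (-0.04 ± 0.25) did not pass.

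Regulators of class II turnover on the membrane rose in part. Of 9 genes, all measured, 4 were higher and 1 lower (median 0.79), against 3.67% and 5.97% of all genes. Marchf1, the ubiquitin ligase that marks class II molecules for removal from the surface, rose by 1.92 ± 0.98 at its brighter probe, and its other probe was not well above background. Cd83, which protects class II from that ligase, rose by 2.00 ± 0.70. The tetraspanins Cd81 (2.63 ± 0.04) and Cd9 (1.69 ± 0.37) rose, and the tetraspanin Cd53, dim in deficient cells on replicate 1, fell by 1.47 ± 1.14.

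Genes of class II transcription, a list of transcription factors with some receptor chains and kinases, mostly did not pass. Of 14 measured out of 19, 2 were higher (3.67% of all genes) and limma called 0 lower (5.97% of all genes), with a median of -0.30. At an unadjusted p under 0.05, 1 was lower, Nfya. Irf8, a factor of myeloid and B cells, rose by 2.04 ± 0.54 at its brighter probe, while its second probe gave -0.52 on replicate 1 and 2.45 on replicate 2. Ifngr1, a chain of the interferon-gamma receptor that leads to Ciita induction, rose by 1.29 ± 0.07. Rfxap and Rfxank, subunits of the RFX complex on the X box, stood at -0.08 ± 0.07 and -0.62 ± 0.34. The Y box factors Nfya (-1.15 ± 1.24) and Nfyb (-0.49 ± 0.06) did not pass either, and Rfx5, Nfyc and Spi1 had no probe past the filter.

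Costimulatory ligands did not pass the test. Of 5 measured out of 6, limma called 0 (1, Icosl, at an unadjusted p under 0.05), against 3.67% higher and 5.97% lower over all genes. All 5 were above 0 on both arrays (median 0.67). Cd80 (0.64 and 0.53) passed the filter through the deficient channel alone, which favours a ratio above 0. The largest of the 5 were Icosl (1.12 ± 0.38; adjusted p = 0.0682) and Cd86 (0.78 ± 0.86). Of the ligand and partner receptors of CD74, Cd44 rose (1.66 ± 0.38), and Cxcr2 (0.87 ± 0.18, with 1.47 ± 0.84 at its other probe), Cxcr4 (-0.28 ± 0.30) and Mif (-0.58 ± 0.43), the ligand, did not pass. Of the T-cell receptors that bind class II, Cd4 stood at 0.30 ± 0.39 and Lag3 was not well above background in either group. Over these 7 lists, 15 of 46 genes measured were higher and 2 were lower, against 3.67% and 5.97% of all genes. Their median was 0.55.

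**Figure D5:**
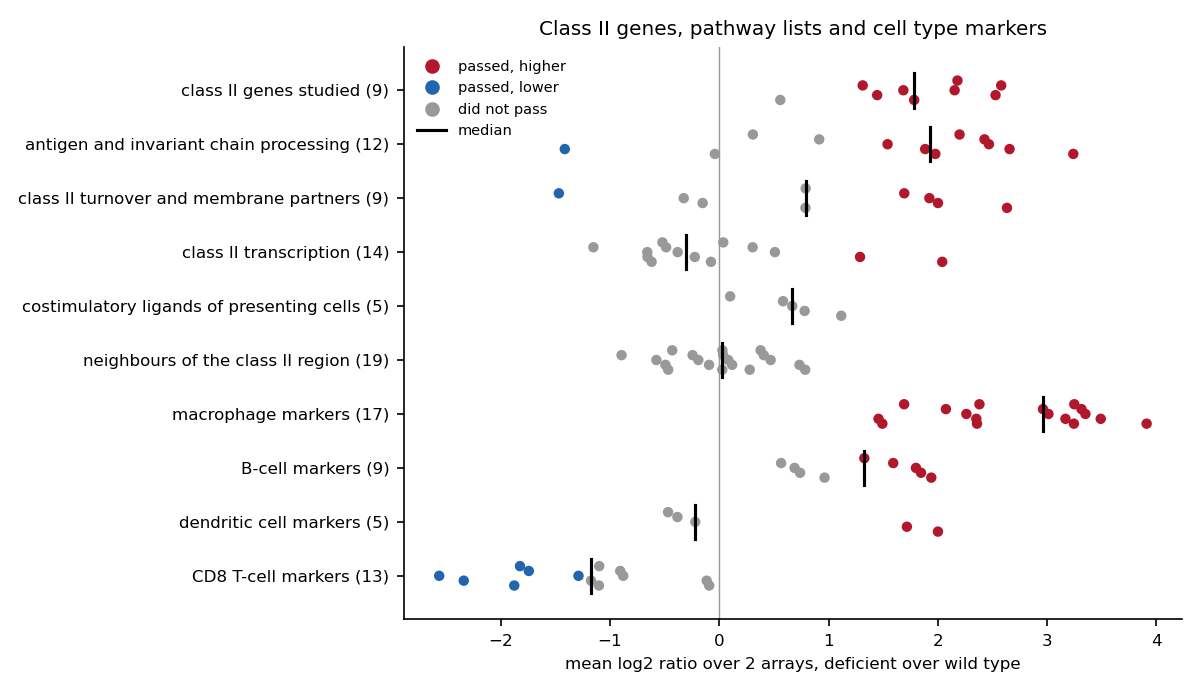
Mean log2 ratio of deficient over wild type over 2 arrays for each measured gene (points) of the class II genes, 3 pathway lists, the costimulatory ligands, the neighbours and 4 cell type marker lists, with the number of genes in brackets and the median as a bar. Red points passed the test upward, blue points downward. Class II genes have a median of 1.78, processing genes 1.93, neighbours 0.03, macrophage markers 2.96, B-cell markers 1.33 and CD8 T-cell markers -1.17.

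All measured macrophage markers and part of the B-cell markers were higher in deficient cells, as most class II genes were. Of 18 macrophage markers 17 were measured and all 17 were higher, against 3.67% of all genes. The 17 had a median of 2.96 (2.52 on replicate 1 and 3.09 on replicate 2). They were led by Apoe (3.91 ± 0.30), C1qc (3.49 ± 0.26) and Adgre1 (3.35 ± 0.04). Their summed intensity was 189784 and 276224 in deficient cells and 26297 and 28718 in wild-type cells. Mertk, the marker that did not pass the filter, was well above background in deficient cells on replicate 2 alone and in wild-type cells on neither array. Of 15 B-cell markers 9 were measured and 5 were higher, against 3.67% of all genes. The 9 had a median of 1.33 (0.94 and 1.73). They were led by Ms4a1, which encodes CD20 (1.94 ± 0.74), Blnk (1.85 ± 1.05) and Fcmr (1.80 ± 0.83). The second Ms4a1 probe gave -0.18 on replicate 1 and 2.02 on replicate 2. Their summed intensity was 42540.3 and 49143 in deficient cells and 23076 and 13705 in wild-type cells. Of the 9, 7 were above 0 on both arrays, while Fcrla (-0.29 and 1.67) and Spib (-0.20 and 1.33) changed sign. Fcer2a (-1.07 and 1.11), Cr2 (-1.39 and 1.09) and Pax5 (-0.36 and 1.02), at their brighter probes, did not pass the filter. They were well above background in wild-type cells alone on replicate 1 and in deficient cells alone on replicate 2. Cd79a, a defining chain of the B-cell receptor, had no spot well above background in deficient cells, and Ebf1 had none in either group.

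Dendritic and plasma cell markers moved in part. Of 11 dendritic cell markers 5 were measured and 2 were higher, against 3.67% of all genes, with a list median of -0.22. The 2 were Itgax, which encodes CD11c (1.23 and 2.77), and Batf3 (1.05 and 2.38). The other measured markers had means from -0.47 to -0.22 and did not pass. A second Itgax probe was not well above background in either group. The summed intensity of the list was 9246 and 29372 in deficient cells and 10334 and 15415 in wild-type cells, so it was higher in deficient cells on replicate 2 alone. Cd209a, Clec10a and Siglech were not well above background in either group. Of 7 plasma cell markers 3 were measured. Jchain was higher (2.00 ± 1.42) and Txndc5 lower (-1.26 ± 1.44), where 3.67% and 5.97% of all genes were. The list had summed intensities of 8154 and 14114 in deficient cells and 6303 and 4113 in wild-type cells. Sdc1 and Prdm1 were not well above background in either group.

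Markers of the purified cells themselves went the other way. Of 14 CD8 T-cell markers 13 were measured, and 6 were lower and limma called 0 higher (0 before adjustment as well). Means ran from -2.56 to -0.09, with a median of -1.17, and not all of the 13 were below 0 on both arrays. The lowest were Cd6 (-2.56 ± 1.44), Cd3e (-2.34 ± 0.53) and Cd5 (-1.88 ± 1.29). The brightest Cd3e probe was well above background in deficient cells on 1 array alone. The summed intensity of the list was 85498 and 92582 in deficient cells and 148512 and 274950 in wild-type cells. Over all genes tested, 5.97% were lower and 3.67% higher. Cd8a (-0.91 ± 0.33) and Cd8b1 (-1.10 ± 0.56), which define the purified cells, had their brightest probes well above background in both groups and did not pass. A second Cd8a probe gave -0.13 ± 0.03 and the dimmest -1.04 ± 0.99. The second probes of Cd6 and Cd3e gave -1.23 ± 0.39 and -1.31 ± 0.38. Cd28, another of the 6, had no deficient spot well above background and passed the filter through the wild-type channel, at least 1.66-fold lower in deficient cells. Likewise, not every macrophage marker that passed was well above background in wild-type cells. The part of these marker shifts in the class II values was not tested, and in bulk RNA more presenting cells and more class II RNA per cell cannot be told apart. Wild-type cells were not free of class II signal: 9 of the 10 genes, all but H2-Ob, had their brightest probe well above background in the wild-type channel on both arrays.

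The genes nearest to the class II genes in their pair of ratios were found by the distance to the median class II gene (1.29 on replicate 1 and 2.33 on replicate 2), a likeness over 2 arrays. They were Lyn, a Src-family kinase (1.33 and 2.35), Tgfbi, a secreted matrix protein (1.32 and 2.28), Ppfibp2, a liprin (1.30 and 2.24), Fcmr, the receptor for the Fc part of IgM (1.21 and 2.39), and Nectin1, an adhesion molecule (1.33 and 2.23).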

How the data were processed

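Spot intensity values (mean brightness and median local background of each spot) come from the deposited scanner files, made with Agilent Feature Extraction 9.5.3.1 per the file headers and the submitters' processing notes. Per the file headers the software also gives a log10 ratio (red over green) for each spot, and the deposited value table repeats it within 0.00500 (replicate 1) and 0.00493 (replicate 2). Probe coordinates are those of the array, build NCBI36. Here, normexp (offset 50), loess within each array (controls at weight 0), removal of 255 and 195 outlier gene spots and averaging of duplicate spots gave log2 ratios. Intensities printed are the channels after these steps, not scaled between arrays. The brightest of 12624 probes with 1 channel well above background on both arrays stood for its gene. limma 3.58.1 (R 4.3.3, statmod 1.5.0) tested the mean against 0, two-sided, with Benjamini-Hochberg adjustment at 0.05 over 9931 genes, on 1 residual degree of freedom per gene (prior variance 0.350). The prior degrees of freedom were infinite, so the prior variance stood for every gene and its own spread was not used. The procedure was tested on simulated data. Names came from a RefSeq table of GRCm38.p6 (24375 probes by accession, 8727 by symbol or synonym, 8072 by the array name). A group not well above background has only a bound ("at least"), per channel after Aquantile normalization, and open to dye bias. Both arrays are on 1 slide. The labels call the arrays biological replicates without naming animals. The genes, lists and tests were chosen with earlier results of these data known. Named are all 10 class II genes, of each pathway list the genes that passed (else the 2 largest), up to 3 leading genes that passed of each marker list, and the 5 nearest genes. Others named to show a list's range or limits (Tap1, Psmb9, Brd2, Tap2, Kifc1, Ctsl, Sppl2a, Ctsf, Rfxap, Rfxank, Nfya, Nfyb, Cd80, Cxcr2, Cxcr4, Mif, Cd8a, Cd8b1, Fcrla, Spib, Fcer2a, Cr2, Pax5) were chosen after their values were seen. Alternatives were other background corrections, dye normalizations, filters, probe summaries and single arrays. A listed marker gene is not reported by name here. The number of arrays limits the precision.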

Additional observations from a re-analysis of the deposited data

How the results depend on the processing

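All 9 measured class II genes kept a mean log2 ratio above 0 in all 13 alternatives that use both arrays, and the median of the 9 was 1.38 to 2.05 above that of all genes in those with the same genes. The calls were less stable than the values. The count of class II genes called higher (8) was 7 without background correction, 1 with the Feature Extraction log ratio, 1 with the deposited value table that repeats it, 1 with median centring, 0 with separate channels and 0 without a filter on dim probes (7 and 7 of them at an unadjusted p under 0.05 in limma). H2-DMb2 passed in 0 of 13. Adjusted p-values ran from 3.85e-10 to 0.259 for Ciita and from 3.59e-05 to 0.288 for H2-Aa. Median centring put the median of all genes at -0.41. All genes called (364 higher, 593 lower) became 50 and 65 with the Feature Extraction log ratio and with the deposited value table, 69 and 348 with median centring, 550 and 216 with both channels well above background, 0 and 0 with separate channels (1987 genes had an unadjusted p below 0.05) and also 0 and 0 with dim probes kept (5116 genes), and 189 lower without background correction. Pathway genes called (15 higher, 2 lower) became 1 and 0 with the Feature Extraction log ratio and the deposited value table, 4 higher with median centring, 0 and 0 with separate channels or without a filter, 0 lower with both channels well above background and 1 lower without background correction. The cause was not tested. Single arrays give no test, and genes beyond 2-fold were counted. Without replicate 1 and without replicate 2 there were 9 and 6 class II genes higher and 0 and 0 lower, 22 and 15 pathway genes higher and 0 and 5 lower, 1 and 0 neighbours higher and 0 and 2 lower, and 635 and 755 of all genes higher and 250 and 2146 lower. H2-DMb2 was -0.52 without replicate 2, against 1.63 without replicate 1, and H2-Aa 0.55 against 3.02. Each ratio already sets the 2 RNA samples of 1 array against each other, so the main test is paired by array. No further pairing was possible because the labels number 1 group of arrays. Dim spots limit H2-Ob, H2-Ea and the second H2-DMb2 probe.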
